A study of Mus musculus with 17 samples.

Results

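The genes described here are 10 members of the JAK-STAT pathway, measured as polyadenylated RNA in the hippocampus of 17 adult mice. They are the STAT transcription factors Stat3, Stat5a, Stat5b and Stat6, the feedback inhibitors Socs1, Socs2, Socs3, Socs5 and Cish, and Lifr, the receptor chain for leukemia inhibitory factor (LIF). They were chosen by gene name, as STAT genes outside the interferon-stimulated set together with SOCS genes and Lifr, and are 10 of 55385 genes in the deposited tables. All 10 passed the filter on low counts that left 18983 genes for testing. Each library came from 1 mouse, untreated per the labels and aged 17.1 to 18 weeks. The Dp16_2xIFNRs group (n = 5, 3 females and 2 males) carried the Dp16 duplication with the interferon receptor dosage set back to normal, and the labels do not say by which alleles. The Dp16 group (n = 6, 3 females and 3 males) carried the duplication alone, an extra copy of a segment of chromosome 16 that corresponds to part of human chromosome 21 and is used as a model of Down syndrome. The WT group (n = 6, 3 females and 3 males) was C57BL/6J, and the labels name no background strain for the other groups.

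Cytokines and hormones that bind receptors of this class activate Janus kinases, which phosphorylate STAT proteins so that these enter the nucleus and switch on target genes. Among those targets are several SOCS genes and Cish, whose products bind the activated receptors or kinases and dampen the signal. Transcripts of such targets are therefore often read as a gauge of recent pathway activity. In the brain, LIF and related cytokines act through LIFR, its partner chain gp130 and STAT3, best known for driving astrocyte differentiation and reactivity, while growth hormone and prolactin signal through STAT5. STAT activity itself depends on phosphorylation of the protein, which RNA levels do not measure.

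None of the 10 genes lay in the duplicated segment. Socs1 is on chromosome 16 too, at 10782240 to 10785536 (GRCm38, GENCODE release M21), 64.8 megabases before the first gene of the segment. The segment, taken here as Lipi to Zbtb21, spans 75540514 to 97962622. The deposited counts are labelled with another GENCODE release, so the positions and overlaps given here may differ from those of the counted genes. Stat5b (100780731 to 100850724), Stat5a (100859351 to 100885169) and Stat3 (100885098 to 100939540) form a cluster on chromosome 11, in which Stat5b and Stat5a are 8626 bases apart and the ends of Stat5a and Stat3, on opposite strands, overlap by 72 bases. Socs3 is on the same chromosome at 117966079 to 117970047. Stat6 (127642986 to 127660957) and Socs2 (95385362 to 95417180) are on chromosome 10, Cish is on chromosome 9 at 107296026 to 107302784, Lifr on chromosome 15 at 7090614 to 7197489, and Socs5 on chromosome 17 at 87107679 to 87137839. The library kit kept strand, but whether strand was used in counting is not given in the sources used here, so reads in the overlaps of Stat3 with Stat5a, of Stat6 with Nab2 (40 bases), and of Cish with its antisense neighbours Gm17041 (1459 bases) and Gm17040 (1167 bases) are uncertain in origin. Stat5a and Stat5b are close paralogs, and how reads that match both were counted is not stated.

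STAT dimers bind a palindrome, TTCNNNGAA, that reads the same on both strands, and STAT6 prefers the form whose spacer is longer by 1 base. RefSeq promoter windows (build GRCm38.p6, 250 bases before to 50 bases after a gene start) matched 8 of the 10 genes, in 11 windows. The windows of Cish and Socs3 are shown, up to base 30 after the start, because they were the windows of these genes that held the first motif, which is in capitals. They lie at chr9:107296409-107296688 on the plus strand and chr11:117969337-117969616 on the minus strand, and both RefSeq starts lie inside the longer GENCODE genes.
Cish: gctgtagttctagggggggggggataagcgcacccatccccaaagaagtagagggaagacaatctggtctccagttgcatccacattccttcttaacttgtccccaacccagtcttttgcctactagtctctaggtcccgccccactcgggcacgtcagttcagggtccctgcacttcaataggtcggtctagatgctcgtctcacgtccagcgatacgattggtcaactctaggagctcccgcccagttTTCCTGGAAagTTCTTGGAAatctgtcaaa
Socs3: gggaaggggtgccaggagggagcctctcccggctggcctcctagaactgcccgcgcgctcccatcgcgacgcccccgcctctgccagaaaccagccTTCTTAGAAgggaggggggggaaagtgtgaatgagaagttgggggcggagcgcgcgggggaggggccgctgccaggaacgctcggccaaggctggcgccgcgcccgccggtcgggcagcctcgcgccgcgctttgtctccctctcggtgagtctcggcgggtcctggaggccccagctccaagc
Cish held the motif at 2 places, TTCCTGGAA beginning at base 1 of the transcript and TTCTTGGAA beginning at base 12, and Socs3 held TTCTTAGAA beginning 154 bases before the start. Of 32841 promoter windows in the table, 8.3% held TTCNNNGAA at least once and 0.457% at least at 2 places. The form with the longer spacer was in 6.95% of the windows and in none of the 11 windows of these genes. A match describes the letters of the window and was not tested as a binding site.

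Each library held 30.4 to 33.1 M counts over all genes (M, mega). The genotype labels were matched by the receptor genes: Ifnar1 averaged 46.2 ± 2.08 CPM (counts per M counts of the scaled library) in Dp16_2xIFNRs mice, 64.6 ± 2.75 CPM in Dp16 mice and 41.3 ± 3.64 CPM in WT mice (SD, n = 5, 6 and 6). Neuron, astrocyte, microglia and oligodendrocyte markers were present in every group. Choroid plexus markers, from the ventricular tissue that lies beside the hippocampus, summed to 2270 to 6420 CPM in 14 libraries but to 90.9 CPM in replicate 5 of Dp16_2xIFNRs, 58.6 CPM in replicate 6 of Dp16 and 54.6 CPM in replicate 6 of WT, so each group had 1 library nearly free of that tissue.

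Per length, the 10 transcripts spanned a wide range of levels in hippocampus. Socs5 was the most abundant, with 27.5 ± 1.65 RPKM (reads per kilobase and per M reads, as deposited by the authors, SD, n = 17 here and for the levels that follow). It was above Stat3 in all 17 libraries, and Stat3, at 8.40 ± 0.511 RPKM, was above the third gene in all 17. Lifr (5.59 ± 0.5 RPKM) exceeded Socs2 (5.26 ± 0.736 RPKM) in 11 of 17 libraries, and their means stood in the opposite order in WT mice, so these neighbours were not separated beyond their spread. Socs2 exceeded Stat5b (4.33 ± 0.364 RPKM) in 14 libraries. Stat5b exceeded Stat6 (2.81 ± 0.431 RPKM) in all 17, and Stat6 exceeded Cish (1.71 ± 0.720 RPKM) in 16. At the low end stood Socs3 (0.723 ± 0.175 RPKM), Stat5a (0.504 ± 0.132 RPKM) and Socs1 (0.376 ± 0.0827 RPKM), with Socs3 above Stat5a in 12 libraries and Stat5a above Socs1 in 14. The low genes had few reads, 24 to 49 per library for Socs1, 32 to 79 for Socs3 and 39 to 106 for Stat5a.

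**Figure D1:**
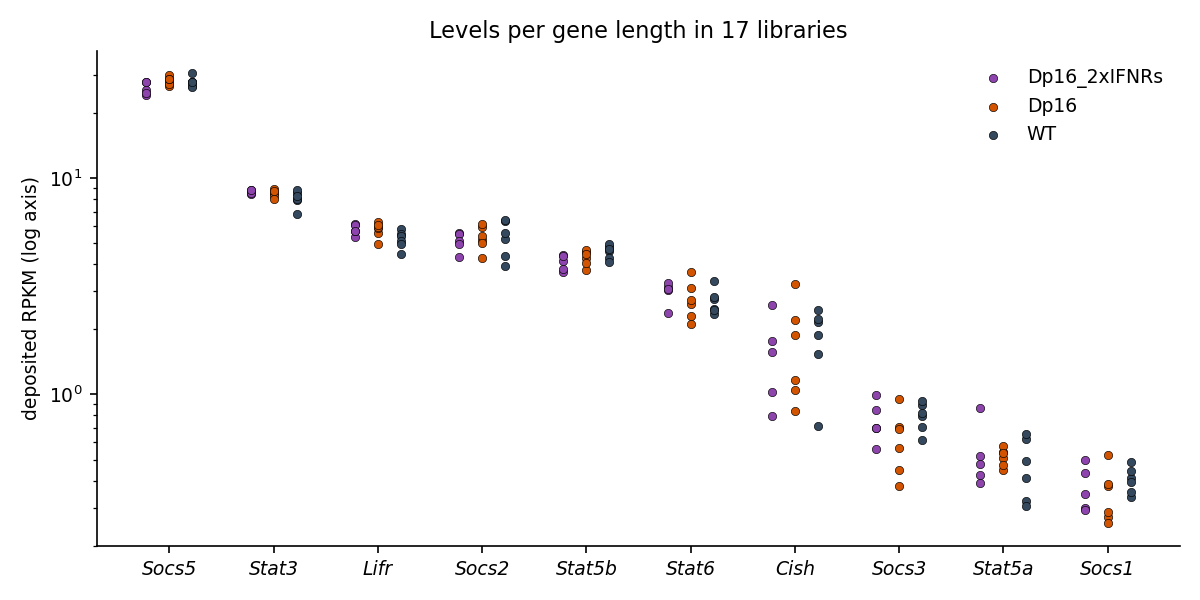
Deposited RPKM (log axis) of the 10 genes in each of the 17 libraries, ordered by mean level, with Dp16_2xIFNRs, Dp16 and WT mice side by side for each gene. Socs5 stands alone at the top with 24.3 to 30.6 RPKM, Socs1 is at the bottom with 0.254 to 0.526 RPKM, and Cish has the widest scatter relative to its level.

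Genotype comparisons asked whether these genes differ in the hippocampus with the duplication, with interferon receptor dosage normalized on it, and between those states. No member passed the test in any of them. In Dp16 against WT, 0 of 10 genes were called at an adjusted p under 0.05 (edgeR quasi-likelihood test, Benjamini-Hochberg over all tested genes), against a background of 0.537% of all tested genes, and 1 had an unadjusted p under 0.05, against 9.58%. In Dp16_2xIFNRs against WT, 0 of 10 were called, against 0.98% of tested genes, and 1 had an unadjusted p under 0.05, against 17%. In Dp16_2xIFNRs against Dp16, 0 of 10 were called, against 0.0158%, and 1 had an unadjusted p under 0.05, against 10.5%. DESeq2 and limma-voom also called 0 of 10 in each. No member separated the groups without overlap in Dp16_2xIFNRs against WT (against 2.17% of tested genes), in Dp16 against WT (0.99%) or in Dp16_2xIFNRs against Dp16 (0.616%). The median log2 fold change of the 10 genes was -0.08 in Dp16_2xIFNRs against WT, 0.03 in Dp16 against WT and -0.02 in Dp16_2xIFNRs against Dp16, beside medians of 0.004, -0.006 and -0.007 over all tested genes. The Dp16_2xIFNRs and Dp16 comparisons with WT share the WT libraries. In bulk tissue, fewer cells of a type and less RNA per cell cannot be told apart.

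How large a change these data could have missed differed between the genes. The 95% interval of the fold change lay within 1.5-fold in either direction for 8 genes in Dp16_2xIFNRs against WT, with Stat5a and Cish outside, and for 7 in Dp16 against WT, with Socs1, Socs3 and Cish outside. It lay within that range for 8 genes in Dp16_2xIFNRs against Dp16, with Socs3 and Cish outside. Cish had the widest interval in all 3, so a moderate change of Cish was not detectable here.

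**Figure D2:**
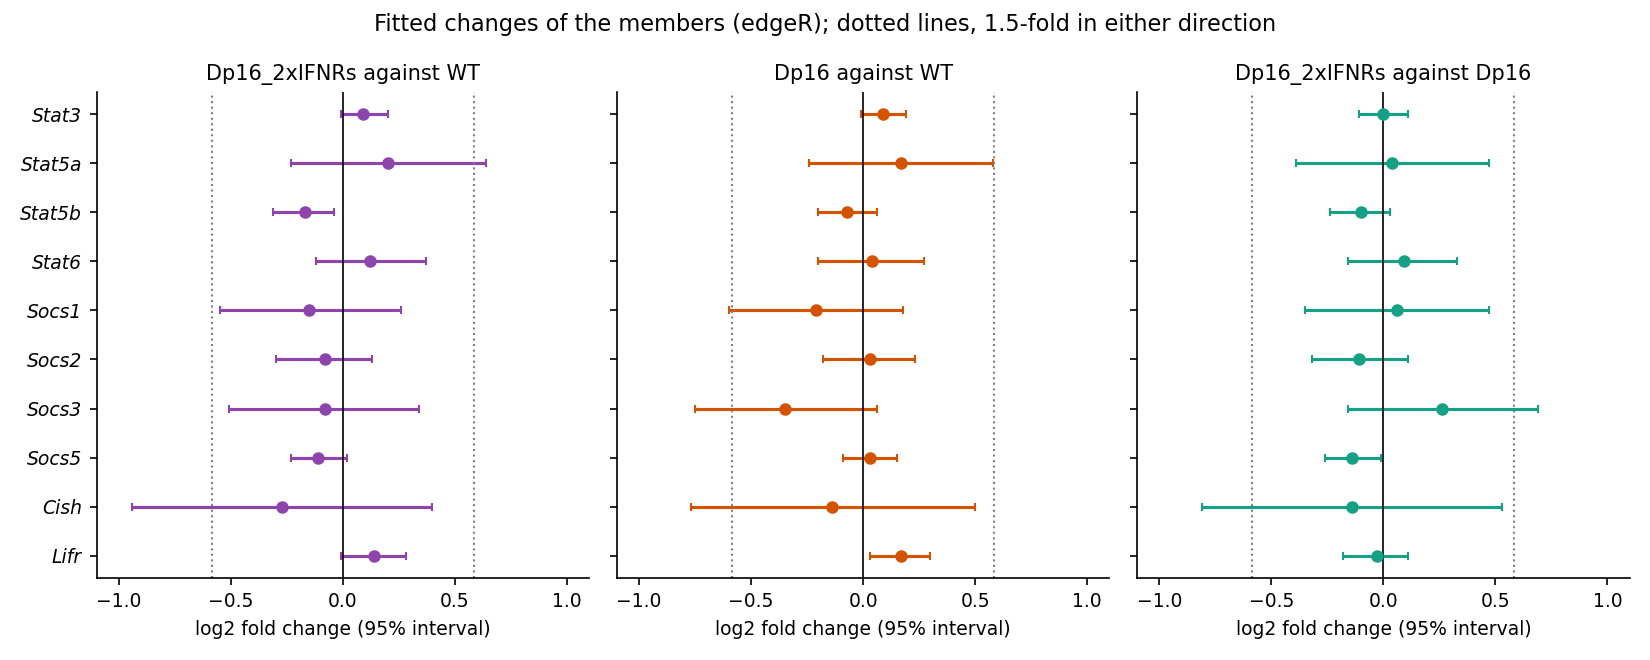
Log2 fold changes of the 10 genes from the edgeR fit, with 95% intervals, for Dp16_2xIFNRs against WT (left), Dp16 against WT (middle) and Dp16_2xIFNRs against Dp16 (right), with dotted lines at 1.5-fold. Stat3, Stat5b, Socs5 and Lifr have narrow intervals close to 0, and the interval of Cish reaches from -0.94 to 0.40 in Dp16_2xIFNRs against WT.

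Stat3, the main effector of LIF and interleukin-6 family signalling, was nearly the same in both duplication groups. It had 54.2, 53.2, 51.9, 53.0 and 55.9 CPM in Dp16_2xIFNRs mice. In Dp16 mice it ranged from 50.4 to 56.0 CPM with a median of 53.2, and in WT mice from 43.8 to 53.9 CPM with a median of 50.7. The groups overlapped, and the lowest value belonged to WT replicate 6, a library nearly free of choroid plexus RNA. The other such libraries, Dp16_2xIFNRs replicate 5 and Dp16 replicate 6, had 55.9 and 56.0 CPM, the highest of their groups. The log2 fold change was 0.09 ± 0.05 (SE, adjusted p = 0.365 by edgeR) in Dp16_2xIFNRs against WT and 0.09 ± 0.05 (adjusted p = 0.562) in Dp16 against WT. Between Dp16_2xIFNRs and Dp16 it was 0.00 ± 0.05, with a 95% interval of -0.11 to 0.11.

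Stat5b, one of the paired STAT5 factors that relay growth hormone and prolactin, had 24.7, 22.3, 20.1, 23.9 and 21.4 CPM in Dp16_2xIFNRs mice. It ranged from 21.5 to 25.6 CPM (median 24.6) in Dp16 mice and from 23.5 to 26.4 CPM (median 25.6) in WT mice. No Dp16_2xIFNRs mouse and no Dp16 mouse exceeded the WT median, although the ranges of the groups overlapped. In Dp16_2xIFNRs against WT the log2 fold change was -0.17 ± 0.07 (95% interval -0.31 to -0.04, unadjusted p = 0.0157 in edgeR), and it did not pass the test after adjustment (adjusted p = 0.192, and 0.127 to 0.339 over the alternative settings). In Dp16 against WT it was -0.07 ± 0.06 (adjusted p = 0.768 by edgeR).

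Stat5a, its less abundant partner here, had 2.07, 1.64, 3.36, 1.87 and 1.57 CPM in Dp16_2xIFNRs mice, 1.75 to 2.29 CPM (median 2.11) in Dp16 mice and 1.25 to 2.58 CPM (median 1.81) in WT mice. One Dp16_2xIFNRs male stood well above the other 4 of its group, and the groups overlapped throughout. Its log2 fold change was 0.20 ± 0.21 in Dp16_2xIFNRs against WT and 0.17 ± 0.20 in Dp16 against WT (adjusted p = 0.647 and 0.834 by edgeR). Without that male, the estimate in Dp16_2xIFNRs against WT was -0.01.

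Stat6, the factor of interleukin-4 and interleukin-13 signalling, had 12, 12, 11.3, 11.5 and 9.17 CPM in Dp16_2xIFNRs mice, 8.23 to 13.7 CPM (median 10.2) in Dp16 mice and 8.76 to 12.2 CPM (median 9.95) in WT mice. The lowest of the 5 Dp16_2xIFNRs values was that of the library nearly free of choroid plexus RNA. The other such libraries, Dp16 replicate 6 and WT replicate 6, had 8.98 and 9.53 CPM. These values lay within the 8.23 to 13.7 CPM (median 11) of the 14 libraries with choroid plexus RNA. Stat6 had a log2 fold change of 0.12 ± 0.12 in Dp16_2xIFNRs against WT and of 0.04 ± 0.11 in Dp16 against WT (adjusted p = 0.626 and 0.944 by edgeR).

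**Figure D3:**
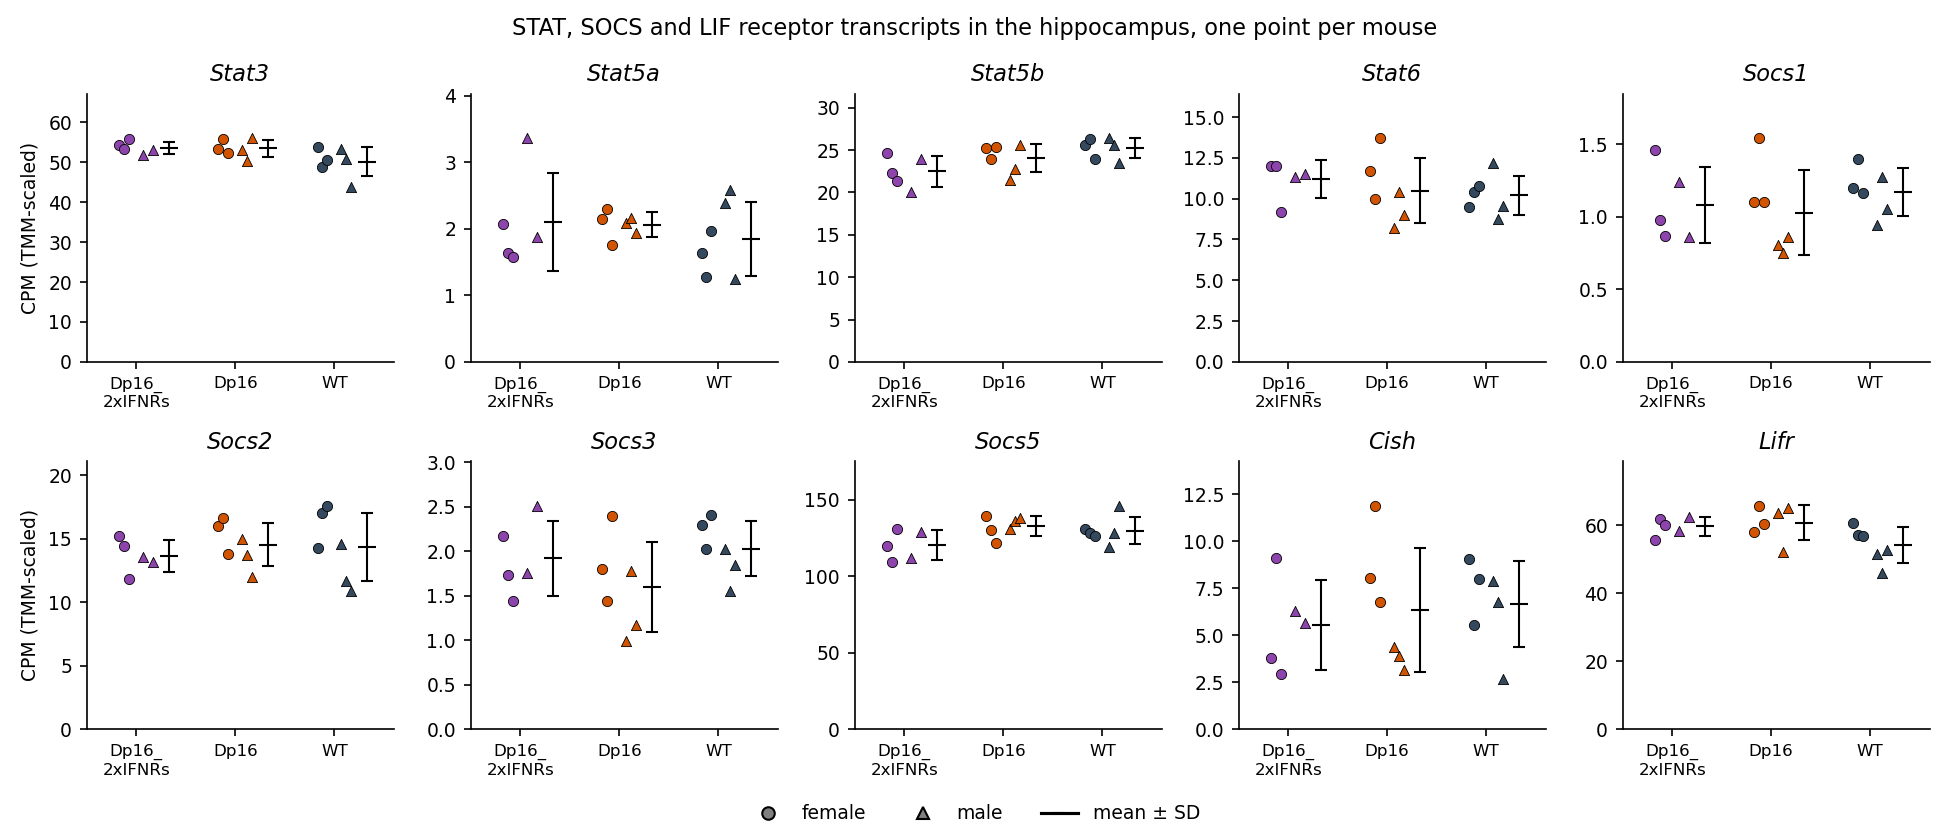
TMM-scaled CPM of the 10 genes, 1 point per mouse (circles, females; triangles, males), with the mean and SD of each group, for Dp16_2xIFNRs, Dp16 and WT mice from left to right. The groups overlap in every panel. Stat5b shows no Dp16_2xIFNRs or Dp16 mouse above the WT median of 25.6 CPM, and Cish spreads from 2.69 to 11.9 CPM.

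Among the inhibitors, Socs3, the classical STAT3 target that shuts off gp130 signalling, had the largest estimate of the 10 in Dp16 against WT, and it did not pass the test. It had 2.17, 1.73, 1.75, 2.51 and 1.44 CPM in Dp16_2xIFNRs mice, 0.994 to 2.40 CPM (median 1.61) in Dp16 mice and 1.55 to 2.41 CPM (median 2.02) in WT mice. Of the 6 Dp16 mice, 1 was above the WT median. The log2 fold change was -0.35 ± 0.19 in Dp16 against WT (adjusted p = 0.595 by edgeR), -0.08 ± 0.20 in Dp16_2xIFNRs against WT (adjusted p = 0.872) and 0.26 ± 0.20 in Dp16_2xIFNRs against Dp16 (adjusted p = 0.634).

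Socs1, the main brake on interferon receptors, had 1.46, 0.976, 1.24, 0.858 and 0.866 CPM in Dp16_2xIFNRs mice, 0.750 to 1.54 CPM (median 0.979) in Dp16 mice and 0.940 to 1.40 CPM (median 1.18) in WT mice. The 3 Dp16 males, at 0.808, 0.750 and 0.857 CPM, had the 3 lowest values of the study, just under the 0.858 and 0.866 CPM of 2 Dp16_2xIFNRs mice. The log2 fold change was -0.15 ± 0.19 in Dp16_2xIFNRs against WT and -0.21 ± 0.19 in Dp16 against WT (adjusted p = 0.742 and 0.766 by edgeR). The spread of Socs1 between mice was 1.06 times that expected from counting alone.

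Socs5, an inhibitor linked to epidermal growth factor and interleukin-4 signalling, had 120, 109, 112, 129 and 131 CPM in Dp16_2xIFNRs mice, 122 to 139 CPM (median 133) in Dp16 mice and 119 to 146 CPM (median 128) in WT mice. No Dp16_2xIFNRs mouse exceeded the Dp16 median, and the ranges overlapped. In Dp16_2xIFNRs against Dp16 the log2 fold change was -0.14 ± 0.06 (95% interval -0.26 to -0.01, unadjusted p = 0.0325 in edgeR). It did not pass after adjustment (adjusted p = 0.45, and 0.366 to 0.742 over the alternative settings).

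Socs2, which restrains growth hormone signalling, had 15.2, 14.4, 13.6, 13.2 and 11.8 CPM in Dp16_2xIFNRs mice, 12 to 16.6 CPM (median 14.4) in Dp16 mice and 10.9 to 17.6 CPM (median 14.4) in WT mice. Its log2 fold change was -0.08 ± 0.10 in Dp16_2xIFNRs against WT and 0.03 ± 0.10 in Dp16 against WT (adjusted p = 0.725 and 0.957 by edgeR).

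Lifr had 55.7, 61.9, 58.2, 62.5 and 60.0 CPM in Dp16_2xIFNRs mice, 52.0 to 65.7 CPM (median 62.0) in Dp16 mice and 45.8 to 60.7 CPM (median 54.8) in WT mice. All 5 Dp16_2xIFNRs mice and 5 of 6 Dp16 mice were above the WT median, and the ranges overlapped. In Dp16 against WT the log2 fold change was 0.17 ± 0.06 (95% interval 0.03 to 0.30, unadjusted p = 0.0164 in edgeR), and it did not pass after adjustment (adjusted p = 0.407, and 0.357 to 0.909 over the alternative settings). In Dp16_2xIFNRs against WT it was 0.14 ± 0.07 (adjusted p = 0.311 by edgeR), and in Dp16_2xIFNRs against Dp16 it was -0.03 ± 0.07 (adjusted p = 0.873). WT females had 60.7, 57.1 and 56.8 CPM and WT males 51.5, 45.8 and 52.8 CPM. Dp16 females had 57.9, 65.7 and 60.4 CPM and Dp16 males 63.5, 52.0 and 65.0 CPM. In Dp16_2xIFNRs mice, females averaged 59.2 CPM and males 60.3 CPM.

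Cish, the SH2 protein that is a standard STAT5 target, was the member that differed most between mice of the same genotype and sex. Its spread between mice was 5.59 times that expected from counting, against 1.06 to 4.3 times for the other 9 genes. It had 3.78, 9.10, 6.31, 5.66 and 2.95 CPM in Dp16_2xIFNRs mice, 3.14 to 11.9 CPM (median 5.58) in Dp16 mice and 2.69 to 9.05 CPM (median 7.35) in WT mice. Its log2 fold change was -0.27 ± 0.32 in Dp16_2xIFNRs against WT, -0.14 ± 0.30 in Dp16 against WT and -0.14 ± 0.32 in Dp16_2xIFNRs against Dp16 (adjusted p = 0.703, 0.918 and 0.893 by edgeR).

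The 3 lowest Cish values of the study, 2.95 CPM in Dp16_2xIFNRs replicate 5, 3.14 CPM in Dp16 replicate 6 and 2.69 CPM in WT replicate 6, were those of the 3 libraries nearly free of choroid plexus RNA. The other 14 libraries had 3.78 to 11.9 CPM with a median of 6.79. With the mean log2 level of the 7 choroid plexus markers as a covariate, a slope chosen after seeing the data, Cish rose by 0.23 ± 0.05 log2 units per log2 unit of the markers over 17 libraries (adjusted p = 0.00934 by edgeR). It was the 1 member of 10 called, against 3.7% of all tested genes, and Socs2 was called beside it without the sex covariate or without WT replicate 5. The call was lost without WT replicate 6 (adjusted p = 0.0822) and without Dp16_2xIFNRs replicate 5 (adjusted p = 0.104), while the slope stayed at 0.23 and 0.21. It was also lost with the replicate number as a block (slope 0.18, adjusted p = 0.872), although the numbers did not pair libraries. The number 6 occurs only in WT and Dp16, and both of those libraries were nearly free of choroid plexus RNA, so this block overlaps the slope. Within the 14 libraries that held choroid plexus RNA the slope of Cish was 0.69 ± 0.38 (adjusted p = 0.8 by edgeR), and 0 of 10 members were called, against 0.335%. Stat5a (0.80 ± 0.26) and Socs1 (0.74 ± 0.30) had steeper slopes than Cish there (adjusted p = 0.456 and 0.661 by edgeR). Without the 3 libraries, the genotype estimates for Cish were -0.23 in Dp16_2xIFNRs against WT and -0.16 in Dp16 against WT. The part of choroid plexus RNA in the Cish values was not tested beyond this slope.

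Prlr, the prolactin receptor, which signals through STAT5 and is abundant in choroid plexus, had 6.13 CPM in Dp16_2xIFNRs replicate 5, 4.25 CPM in Dp16 replicate 6 and 4.00 CPM in WT replicate 6, against 41.3 to 133 CPM in the other libraries. Its slope on the same markers was 0.75 ± 0.03 over 17 libraries (adjusted p = 2.29e-12 by edgeR). Within the 14 libraries that held choroid plexus RNA it was 0.87 ± 0.19 and was not called (adjusted p = 0.0815 by edgeR). Dp16 replicate 2 was the highest library of the study in both genes, with 11.9 CPM of Cish and 133 CPM of Prlr. The 2 genes did not always go together. Dp16_2xIFNRs replicate 1 had 3.78 CPM of Cish, the lowest of the libraries with choroid plexus RNA, beside 68.1 CPM of Prlr.

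**Figure D4:**
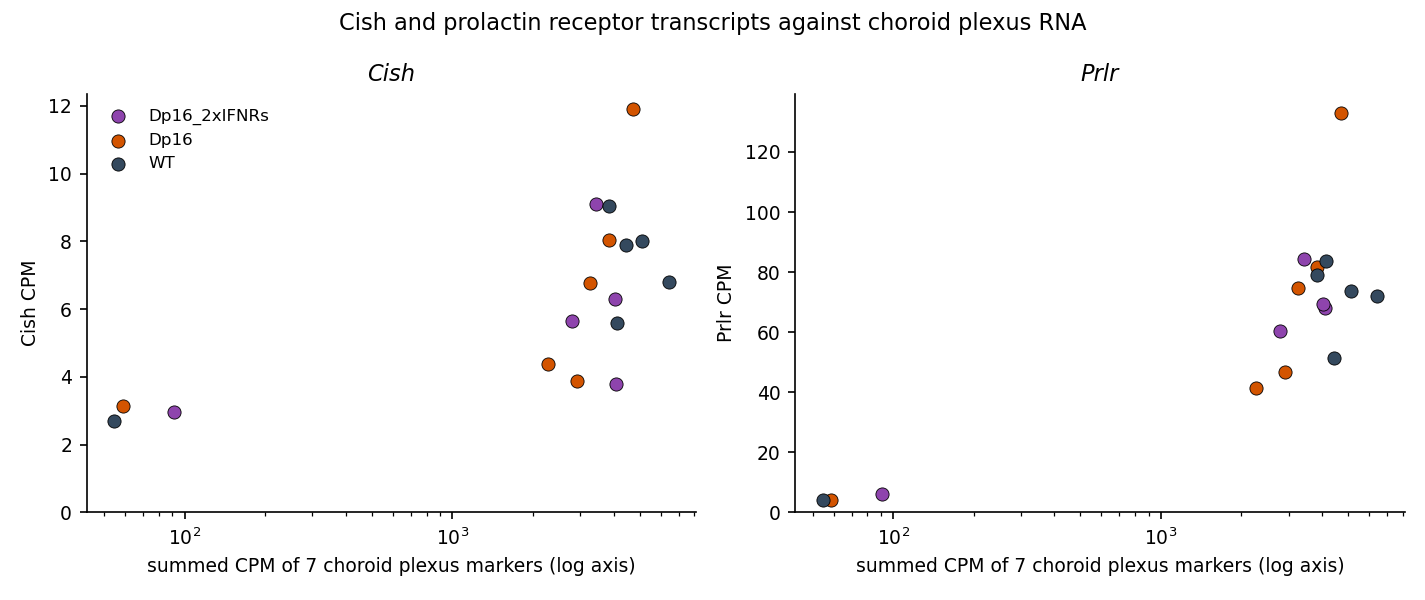
Cish (left) and Prlr (right) in CPM against the summed CPM of 7 choroid plexus markers (log axis), 1 point per mouse, coloured for Dp16_2xIFNRs, Dp16 and WT. The 3 libraries at 54.6 to 90.9 marker CPM have 2.69 to 3.14 CPM of Cish and 4.00 to 6.13 CPM of Prlr, below all of the other 14.

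After the fitted genotype and sex effects were subtracted, the genes whose log2 CPM followed Cish most closely among 13746 candidates over 17 libraries were Chdh (Pearson r 0.943, Spearman rho 0.936), Prcd (0.943 and 0.914) and Ppfibp2 (0.924 and 0.885). Chdh encodes choline dehydrogenase. Within the 14 libraries with choroid plexus RNA, r was 0.877 for Chdh, 0.907 for Prcd and 0.827 for Ppfibp2. Chdh and Ppfibp2, like Cish, had their lowest values in the 3 other libraries. The closest to Socs5 were Stau2 (r 0.937), Cct6a (0.916) and Pnpla8 (0.916), and the closest to Lifr were Lpin2 (0.893), Ncam1 (0.887) and Supt6 (0.884). Socs2 was followed by Mamstr (0.826), Tram2 (0.826) and Cutal (0.818), and Stat6 by Pear1 (0.851), Plekha7 (0.832) and Il3ra (0.831). Among pairs of the 10 genes themselves, Stat6 and Socs3 were the closest (r 0.80, rho 0.79, and r 0.72 within the 14 libraries). These values are descriptions, since libraries share dissection and composition, and each named gene is the highest of many.

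Females and males were compared because STAT5, Socs2 and Cish respond to growth hormone and differ by sex in other tissues such as liver. In female against male, 0 of 10 genes were called by edgeR, by DESeq2 or by limma-voom, against 0.0685% of tested genes, and 1 had an unadjusted p under 0.05, against 3.26%. In 0 of 10 were the sexes free of overlap, against 0.0738% of tested genes. The gene with the low unadjusted p was Socs2, with 15.2 ± 1.82 CPM in females and 13.1 ± 1.45 CPM in males (SD, n = 9 and 8). Its log2 fold change was 0.22 ± 0.08 (95% interval 0.05 to 0.39, unadjusted p = 0.0149 and adjusted p = 1 in edgeR), and 8 of 9 females were above the male median. Within groups, Socs2 averaged 13.8 CPM in females and 13.4 CPM in males of Dp16_2xIFNRs, 15.5 and 13.6 CPM of Dp16, and 16.3 and 12.4 CPM of WT. Cish averaged 7.24 ± 2.80 CPM in females and 5.09 ± 1.86 CPM in males, with a log2 fold change of 0.51 ± 0.26 (adjusted p = 1 by edgeR). Of the 3 libraries nearly free of choroid plexus RNA, 1 was female and 2 were male, and with the choroid plexus markers as a covariate the estimates were 0.17 for Socs2 and 0.31 for Cish.

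The effect of the duplication did not differ detectably between the sexes in any member. For the Dp16 effect in females against that in males, 0 of 10 genes were called by edgeR, by DESeq2 or by limma-voom, against 0% of tested genes, and 0 had an unadjusted p under 0.05, against 2.98%. The largest estimate was that of Cish, which averaged 8.90 ± 2.65 CPM in Dp16 females and 7.55 ± 1.78 CPM in WT females, but 3.80 ± 0.622 CPM in Dp16 males and 5.80 ± 2.75 CPM in WT males (SD, n = 3 each). The difference between those effects was 0.85 ± 0.55 log2 units, with a 95% interval of -0.32 to 2.01 (adjusted p = 1 by edgeR). For Lifr it was -0.19 ± 0.12, with 61.4 CPM in Dp16 females and 58.2 CPM in WT females, and 60.2 CPM in Dp16 males and 50 CPM in WT males. The interval lay within 1.5-fold for Stat3, Stat5b, Socs5 and Lifr and not for the other 6 genes.

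The rest of the pathway was followed in 78 genes sorted by role, of which 65 were tested, and none of the 65 passed the edgeR test in a genotype comparison. Their median log2 fold change was 0.04 in Dp16_2xIFNRs against WT, 0.01 in Dp16 against WT and 0.02 in Dp16_2xIFNRs against Dp16, beside 0.004, -0.006 and -0.007 over all tested genes. Unadjusted p under 0.05 was reached by 13 of the 65 in Dp16_2xIFNRs against WT, 11 in Dp16 against WT and 12 in Dp16_2xIFNRs against Dp16, beside 17%, 9.58% and 10.5% of all tested genes. By DESeq2, 2 of them were called in the first comparison and 1 in Dp16 against WT, where it called 639 of 18344 and 211 of 19724 genes with an adjusted p, and 0 in Dp16_2xIFNRs against Dp16.

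Of the ligands of the LIF and interleukin-6 family, 0 of the 6 tested were called. Per length, Ctf1, cardiotrophin, had 1.29 RPKM and Lif had 0.294 RPKM. Il6 gave 21 counts over the 17 libraries and Osm 42, and both stayed below the filter. Clcf1, the cardiotrophin-like cytokine, averaged 0.599 ± 0.162 CPM in Dp16_2xIFNRs mice, 0.325 ± 0.102 CPM in Dp16 mice and 0.569 ± 0.181 CPM in WT mice. Its log2 fold change was -0.83 in Dp16 against WT and 0.86 in Dp16_2xIFNRs against Dp16, with adjusted p of 0.308 and 0.433 by edgeR, and the 2 comparisons share the Dp16 libraries.

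Receptor chains of that family were expressed, and 0 of the 8 tested were called. Cntfr, the ciliary neurotrophic factor receptor, had 28.5 RPKM, and Il6st, which encodes gp130, the chain that pairs with LIFR, had 9.01 RPKM, against 5.59 RPKM of Lifr. Il6st averaged 103 ± 2.76 CPM in Dp16_2xIFNRs mice, 98.4 ± 4.65 CPM in Dp16 mice and 96.0 ± 5.69 CPM in WT mice, with adjusted p of 0.301 in Dp16_2xIFNRs against WT by edgeR. Csf3r, the receptor for granulocyte colony-stimulating factor, averaged 7.21 ± 1.68 CPM in Dp16_2xIFNRs mice, 5.70 ± 0.698 CPM in Dp16 mice and 5.20 ± 0.459 CPM in WT mice. Its log2 fold change in Dp16_2xIFNRs against WT was 0.47, and edgeR did not call it (adjusted p = 0.104), while DESeq2 did (adjusted p = 0.0389). Peripheral leukocyte markers summed to 6.32 to 9.35 CPM in Dp16_2xIFNRs mice and 4.97 to 6.23 CPM in WT mice, and of the 4 of 7 that were tested, 3 had a positive estimate with an unadjusted p under 0.05 and 0 were called. Meningeal fibroblast markers summed to 96.0 to 138 CPM in Dp16_2xIFNRs mice and 61.1 to 99.3 CPM in WT mice. The part of either cell type in the Csf3r values was not tested. Osmr, the oncostatin M receptor chain, had an adjusted p of 0.51 in Dp16 against WT (log2 fold change 0.30).

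Of the 11 tested receptor chains that signal through STAT5 or STAT6, 0 were called. The lowest unadjusted p values were those of Csf2rb, with 1.34 CPM in Dp16_2xIFNRs mice, 1.53 CPM in Dp16 mice and 1.00 CPM in WT mice, Csf2ra (20.5, 14.1 and 14.9 CPM in the same order of groups) and Il13ra1 (8.26, 7.92 and 6.92 CPM). Csf2rb and Csf2ra are chains of the granulocyte-macrophage colony-stimulating factor receptor, and Il13ra1 is a chain of the interleukin-13 receptor. Their lowest adjusted p over the 3 comparisons were 0.325, 0.244 and 0.211 by edgeR.

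The kinases, the other STAT genes and the other inhibitors gave no calls either, with 0 of 4 Janus kinases, 0 of 2 tested STAT genes, 0 of 3 SOCS genes and 0 of 11 further negative regulators. Jak1 was the most abundant kinase per length, with 41.9 RPKM, and Jak3 the least, with 1.46 RPKM. Stat2, which acts in interferon signalling, averaged 28.3 ± 1.57 CPM in Dp16_2xIFNRs mice, 24.8 ± 2.66 CPM in Dp16 mice and 24.6 ± 2.59 CPM in WT mice, with an adjusted p of 0.23 in Dp16_2xIFNRs against WT by edgeR. Socs7 was the most abundant of the other SOCS genes, with 19.3 RPKM. Ptpn2, a phosphatase that acts on Janus kinases and STATs, averaged 20.8 ± 0.939 CPM in Dp16_2xIFNRs mice, 18.1 ± 1.15 CPM in Dp16 mice and 18.6 ± 1.5 CPM in WT mice, with an adjusted p of 0.433 in Dp16_2xIFNRs against Dp16.

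Known targets of the STAT factors were read as the output side of the pathway, and 0 of 13 STAT3 targets, 0 of 5 STAT5 targets and 0 of 2 STAT6 targets were called by edgeR. Of the 13 STAT3 targets, 5 had a positive estimate in Dp16 against WT, and the median log2 fold change was -0.04. The positive ones were Lcn2 at 1.34, Bcl3 at 0.43, Gfap at 0.24, Serpina3n at 0.19 and Vim at 0.02. Lcn2 had 0.385 CPM in Dp16 mice and 0.148 CPM in WT mice. The lowest were Pim1 at -0.25, Fos at -0.20 and Junb at -0.17. Gfap, the astrocyte filament gene and a STAT3 target, had 430, 383, 408, 334 and 413 CPM in Dp16_2xIFNRs mice and averaged 418 ± 18.7 CPM in Dp16 mice and 353 ± 27.8 CPM in WT mice. In Dp16 against WT all 6 Dp16 mice, at 391 to 437 CPM, were above all 6 WT mice, at 302 to 386 CPM. The log2 fold change was 0.24 (adjusted p = 0.123 by edgeR, and 0.0376 by DESeq2). Serpina3n, another gene of reactive astrocytes, had 40.9 ± 4.2 CPM in Dp16 mice and 35.9 ± 2.18 CPM in WT mice (adjusted p = 0.317 by edgeR). The 5 astrocyte markers had a median log2 fold change of 0.01 in the same comparison, and 0 were called. Slc1a3 and S100b were each at 0.13, Aqp4 at 0.01, Aldh1l1 at -0.01 and Gja1 at -0.07. Groups did not overlap in 0.99% of all tested genes in that comparison.

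Mrc1, the mannose receptor of border macrophages and a STAT6 target, had 8.86, 5.86, 5.62, 7.24 and 5.84 CPM in Dp16_2xIFNRs mice and averaged 5.21 ± 1.05 CPM in Dp16 mice and 4.34 ± 0.946 CPM in WT mice. In Dp16_2xIFNRs against WT its log2 fold change was 0.60, which edgeR did not call (adjusted p = 0.0793) and DESeq2 did (adjusted p = 0.0151). The meningeal fibroblast markers, 5 of 5 detected, had a median log2 fold change of 0.60 in that comparison, and their part in the Mrc1 values was not tested. Ccnd2, a cyclin gene and STAT5 target, averaged 82.2 ± 7.52 CPM in Dp16_2xIFNRs mice, 81.3 ± 4.63 CPM in Dp16 mice and 94.2 ± 14.8 CPM in WT mice, with adjusted p of 0.219 in Dp16_2xIFNRs against WT and 0.407 in Dp16 against WT by edgeR.

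**Figure D5:**
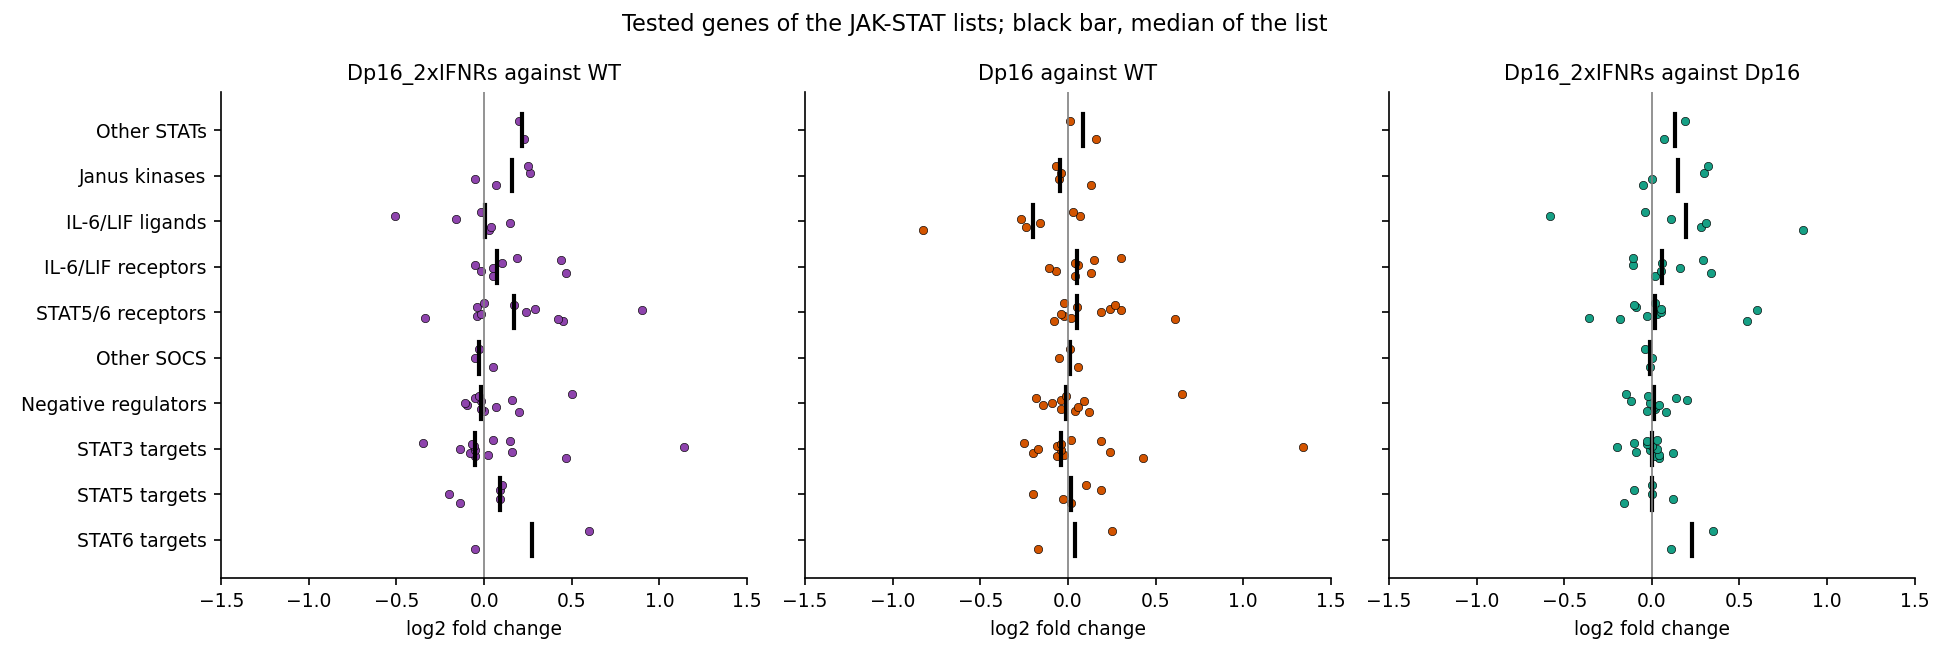
Log2 fold changes of the tested genes in 10 lists of the JAK-STAT pathway, 1 point per gene and a black bar at each list's median, for Dp16_2xIFNRs against WT (left), Dp16 against WT (middle) and Dp16_2xIFNRs against Dp16 (right). Most points lie near 0. The point farthest to the right is Lcn2, at 1.14 in Dp16_2xIFNRs against WT and 1.34 in Dp16 against WT, a gene with 0.331, 0.385 and 0.148 CPM in Dp16_2xIFNRs, Dp16 and WT mice.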

How the data were processed

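Polyadenylated hippocampal RNA of 17 mice was sequenced with a strand-specific kit, per the labels' protocols. Per the submitters' processing notes the tools included HISAT2 2.1.0, SAMtools 1.5 and HTSeq 0.6.1, on build GRCm38. Raw counts and RPKM per gene were deposited by the authors; their RPKM match the counts divided by 1 length per gene and by the library total. Here, edgeR 4.0.16 in R 4.3.3 kept genes by filterByExpr (minimum count 10), scaled by TMM and fitted a quasi-likelihood model of genotype and sex (17 libraries, 13 residual degrees of freedom). Calls used a Benjamini-Hochberg adjusted p under 0.05 over all tested genes. A prior count of 2 went into log2 CPM. DESeq2 1.42.0 and limma 3.58.1 were alternatives, with other scalings, filters, covariates and leaving out each library. Scripts were checked on simulated data. The labels state separate mice, no 2 libraries held identical values, and counting error is smaller than the spread between mice for most members.

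The members and lists were chosen with earlier results of these data known. All 10 members are named. From each pathway list up to 3 genes with the lowest unadjusted p over the genotype comparisons were eligible for naming. Genes named for their level or for their link to choroid plexus were chosen after their values were seen. So were further STAT3 targets and the astrocyte markers. Replicate numbers did not pair libraries.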

Additional observations from a re-analysis of the deposited data

Results flagged for a closer look

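In 2 of 30 groups of samples, 10 genes in 3 genotypes, 1 mouse stood apart from the rest of its group by Dixon's criterion, where chance gives about 1 in 20 groups. Stat5a had 3.36 CPM in Dp16_2xIFNRs replicate 3, a male, against 1.57 to 2.07 CPM in the other 4 mice of the group, a gap of 0.72 of the group's range. Stat6 had 9.17 CPM in Dp16_2xIFNRs replicate 5, against 11.3 to 12 CPM in the other 4 mice, a gap of 0.75 of the range. That library is the one of its group nearly free of choroid plexus RNA, with 90.9 CPM summed over the markers. Over 17 libraries the slope of Stat6 on those markers was 0.04 ± 0.02 and was not called (adjusted p = 0.443 by edgeR).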

How the results depend on the processing

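Counts of called members were 0 in all 160 recomputations (5 comparisons, 33 settings including 17 libraries left out, and not every setting in every comparison). Of 700 log2 fold changes recomputed under other settings 17 reversed, and 17 of 850 with 1 library left out, none of them called; the cause was not tested. The estimate of Cish in Dp16_2xIFNRs against Dp16 became 0.05 with age added and 0.04 with the identifier series added. It ranged from -0.32 to 0.07 with libraries left out. The identifier series is the leading digit of a number in the library name, whose meaning the labels do not give. Its low and high values occur in all 3 genotypes, and its mid value only in Dp16 replicates 2 and 4. With the identifier series, Socs2 in Dp16 against WT became -0.04, Stat6 and Lifr in Dp16_2xIFNRs against Dp16 became -0.03 and 0.01, and Socs5 in the sex interaction became 0.01. Without the 3 libraries lowest in choroid plexus markers, Lifr in Dp16_2xIFNRs against Dp16 was 0.01, Socs3 in Dp16_2xIFNRs against WT 0.02, and Stat3 in the interaction 0.08. On deposited RPKM with 0.1 or 1 added, the interaction was 0.02 for Stat3 and 0.03 for Socs5. With libraries left out, Stat6 ranged from -0.04 to 0.11 and Socs2 from -0.03 to 0.07 in Dp16 against WT, Stat5a from -0.01 to 0.29 and Socs3 from -0.26 to 0.02 in Dp16_2xIFNRs against WT, Stat5a from -0.17 to 0.11 and Socs1 from -0.07 to 0.19 in Dp16_2xIFNRs against Dp16, and Stat3 from -0.09 to 0.04 and Socs5 from -0.10 to 0.05 in the interaction. Called pathway genes in Dp16_2xIFNRs against WT were 1 at a threshold of 0.1 (Mrc1), 2 by DESeq2 (Mrc1 and Csf3r), 1 without a filter (Mrc1) and 0 to 1 with libraries left out (Mrc1 without WT replicate 2, Csf3r without Dp16_2xIFNRs replicate 1), and 1 by DESeq2 in Dp16 against WT (Gfap). Members called on the choroid plexus slope were 2 without the sex covariate (Cish and Socs2), 0 in the 14 libraries and 0 to 2 with libraries left out, 2 without WT replicate 5. Same-numbered libraries did not deviate together (mean correlation -0.0155 over 16 pairs, 0.00479 for 80 other pairs). With the replicate number as a block, 0 members were called on the slope and in each comparison it was run in, and Stat5a in Dp16_2xIFNRs against Dp16 became -0.09, and in female against male Socs1 became -0.17, Socs5 0.07 and Cish -0.30; the number fixes sex except in Dp16_2xIFNRs replicates 3 and 5. Socs1, Socs3 and Stat5a had 24 to 106 counts per library, and their spread between mice was 1.06, 1.69 and 1.83 times that expected from counting.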
